A study of Mus musculus with 6 samples.

Results

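A set of genes that mark immature and mature neutrophils were examined in RNA sequencing of inguinal adipose tissue (iAT), the subcutaneous fat depot of the groin. The set held 9 genes, *S100a8*, *S100a9*, *Ngp*, *Camp*, *Ltf*, *Elane*, *Mpo*, *Retnlg* and *Csf3r*, found by their symbols among the 19831 genes listed. All 9 were listed, and all 9 passed the minimum mean of 1 normalized count. The tissue came from mice at postnatal day 6, kept specific-pathogen-free, and total RNA was taken from it with TRIzol. The control group was 3 wild-type samples (WT), and the other group was 3 samples that lacked Npffr1, a receptor for neuropeptide FF (Npffr1-KO). No treatment is named for either group. The strain, the sex, how the knockout was made and whether a sample was 1 animal are not stated in the sources used here, so p-values measure the spread between these samples, which may be technical.

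Neutrophils are made in the bone marrow and fill their granules in steps as they mature. Promyelocytes load the azurophil (primary) granules with serine proteases and myeloperoxidase, and later precursors load the specific (secondary) granules with lactoferrin, cathelicidin and neutrophilic granule protein. Mature cells in the blood keep a large cytosolic pool of S100a8 and S100a9 and carry the receptor for granulocyte colony-stimulating factor, while most granule messages are switched off before the cells leave the marrow. C/EBP family factors and PU.1 are known to drive the genes of this lineage. Adipose tissue is supplied with blood and holds few neutrophils at rest.

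*S100a8* and *S100a9* are neighbours on mouse chromosome 3, with 0 protein-coding genes between them in the RefSeq annotation of GRCm38.p6. *Camp*, *Ngp* and *Ltf* lie on chromosome 9, with 8 protein-coding genes between *Camp* and *Ngp* and 20 between *Ngp* and *Ltf*. *Elane* on chromosome 10 adjoins *Prtn3*, the gene of the related protease proteinase 3. The promoters of *S100a8*, *S100a9*, *Ngp*, *Ltf* and *Camp* are shown because the first 4 belong to the pairs of members, among those compared, whose read ratios varied least between libraries, and *Camp* is the third specific-granule gene on the same chromosome. Each sequence is the 150 bases before the RefSeq start, read 5′ to 3′ on the strand of the gene. They cover chr3:90668921-90669070 (plus strand) for *S100a8*, chr3:90695722-90695871 (minus) for *S100a9*, chr9:110419658-110419807 (plus) for *Ngp*, chr9:111019142-111019291 (plus) for *Ltf* and chr9:109849457-109849606 (minus) for *Camp*. Capitals mark matches on either strand to the C/EBP letters TTNNGNAA, where N is any base, to the PU.1 letters GAGGAA, or to the letters TATAAA of a promoter element that binds the TATA-binding protein.
S100a8: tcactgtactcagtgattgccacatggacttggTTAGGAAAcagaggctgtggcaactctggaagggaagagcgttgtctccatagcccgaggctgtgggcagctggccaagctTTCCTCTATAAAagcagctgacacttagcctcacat
S100a9: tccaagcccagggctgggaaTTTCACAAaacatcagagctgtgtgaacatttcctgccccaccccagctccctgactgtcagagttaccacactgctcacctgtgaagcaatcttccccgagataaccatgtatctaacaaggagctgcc
Ngp: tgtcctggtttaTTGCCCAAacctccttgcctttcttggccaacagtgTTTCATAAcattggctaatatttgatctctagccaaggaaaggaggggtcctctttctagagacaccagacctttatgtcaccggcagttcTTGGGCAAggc
Ltf: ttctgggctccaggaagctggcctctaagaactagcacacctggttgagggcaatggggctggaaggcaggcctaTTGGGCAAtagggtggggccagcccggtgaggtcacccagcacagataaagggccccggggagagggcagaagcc
Camp: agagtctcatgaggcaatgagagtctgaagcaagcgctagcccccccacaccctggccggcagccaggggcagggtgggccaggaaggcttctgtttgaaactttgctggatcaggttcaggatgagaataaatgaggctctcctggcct

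All 9 members were matched by symbol in the RefSeq promoter table. In the 250 bases before the start, the C/EBP letters stood in 5 of the 9 members, namely *S100a8*, *S100a9*, *Ngp*, *Ltf* and *Retnlg*, and in 36.8% of the 32851 RefSeq promoters. The PU.1 letters stood in 5 as well, *S100a8*, *Ltf*, *Elane*, *Mpo* and *Csf3r*, against 23.3% of all promoters. The letters TATAAA were matched in *S100a8* alone, 30 bases before its start, against 12.4% of all promoters, and in that promoter it directly follows a PU.1 match without overlap. *Ngp* held 3 C/EBP matches, at 138, 102 and 11 bases before the start, and *Ltf* held 2, at 217 and 75. *Camp* held none of the 3 motifs in this window. These matches describe letters only, and no binding was measured here.

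The deposited table gives 1 normalized value per genotype, so the reads of each library were worked out from these values. This worked for 8621 of the 8950 genes whose mean was 200 normalized counts or less, including all 9 members. For *S100a8*, *Camp*, *Ltf*, *Elane*, *Mpo* and *Retnlg*, 1 combination of whole reads matched. For *S100a9* and *Ngp* 4 combinations matched and for *Csf3r* 59. In each case 1 of them both lay near the deposited ratio of the genotypes and had all libraries within 5-fold. The values of these 3 genes, and of *Csf3r* above all, rest on that choice. The libraries were given the names WT-A to WT-C and KO-A to KO-C, since they could not be tied to sample numbers. Their size factors lay between 0.916 and 1.04, and the 8621 genes held between 246274 and 297305 reads per library. The members held from 83 reads (*Mpo*) to 1166 reads (*Csf3r*) over the 6 libraries.

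The targeted gene was near the limit of detection. *Npffr1* had 1, 0 and 5 reads in WT-A, WT-B and WT-C and 0 reads in each of KO-A, KO-B and KO-C. In 2 genes a pair of libraries, 1 of each genotype, stood apart from the others. No other pair was searched in this way. *Pira11* was confined to another pair, with 23 reads in WT-B, 32 in KO-A and 0 elsewhere. The keratin gene *Krt5* was at 10.9 normalized counts in WT-C and 20.2 in KO-A and at 0 in the other 4 libraries. *Rps27rt*, a retrotransposed copy of the ribosomal protein gene *Rps27* that may share reads with it, was at 167 and 162 in the same pair of libraries and at 0 in the rest. Both libraries also had the highest levels of most members, as described below, and the fit was therefore also run without them, a choice made after the data were seen.

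At the level of RNA per length, the S100 genes led the set. Normalized counts per kilobase of gene length averaged 194 for *S100a9* and 147 for *S100a8*, followed by 89.2 for *Ngp*, 52.7 for *Csf3r*, 38.6 for *Camp*, 31.7 for *Retnlg*, 27.6 for *Elane*, 17.4 for *Ltf* and 5.32 for *Mpo*. The azurophil granule gene *Mpo* was thus the lowest and the cytosolic pair the highest. Among all 19831 genes these levels per length reached from the 22.1st percentile for *Mpo* to the 61.4th for *S100a9*. The ranges over the 6 libraries overlapped for every pair of neighbours in this order. They did not overlap between *S100a8*, lowest 90.1, and *Csf3r*, highest 64.6, nor between *Elane*, lowest 20.2, and *Mpo*, highest 14.6.

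**Figure D1:**
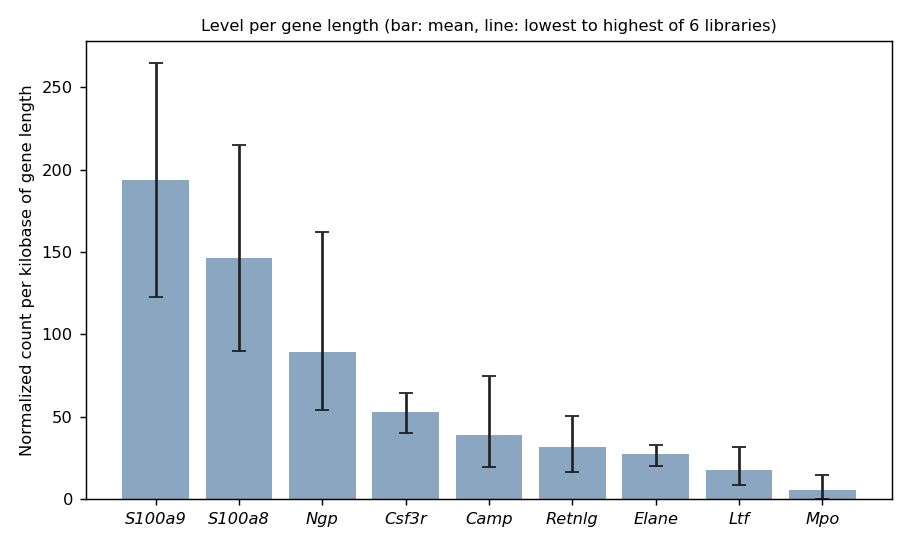
Level of each gene per length, in normalized counts per kilobase of gene length (y axis). Bars give the mean of the 6 libraries and lines reach from the lowest to the highest library, with *S100a9* highest at 194 and *Mpo* lowest at 5.32.

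*S100a8* and *S100a9* encode the subunits of calprotectin, which binds calcium and zinc and makes up much of the neutrophil cytosol. *S100a8* was at 50.2, 56.8 and 84.4 normalized counts in WT-A, WT-B and WT-C, and at 71.3, 35.3 and 46.9 in KO-A, KO-B and KO-C. The lowest library was KO-B and the highest WT-C, and the genotypes overlapped. The mean was 63.8 ± 18.1 in WT and 51.2 ± 18.4 in Npffr1-KO (SD, n = 3), a log2 difference of -0.34 with a standard error of 0.31 and a 95% interval from -0.99 to 0.31 (limma, adjusted p = 0.77). *S100a9* was at 95.6, 99.9 and 142 in WT-A, WT-B and WT-C and at 133, 65.6 and 87.3 in KO-A, KO-B and KO-C. It ranked the 6 libraries in the same order, with WT-C and KO-A on top and KO-B at the bottom. Its log2 difference was -0.28 ± 0.27 (SE; limma, adjusted p = 0.79). The exact permutation test gave p = 0.4 for *S100a8* and p = 0.5 for *S100a9* (two-sided, n = 3 per group), where 0.1 is the smallest p that 3 against 3 can give. In bulk tissue, a change in the number of cells and a change in RNA per cell cannot be told apart.

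The S100 genes kept a nearly fixed ratio in all libraries. *S100a8* had between 0.525 and 0.594 reads for each read of *S100a9*, so that the highest ratio was 1.13 times the lowest, while the level of *S100a8* itself varied 2.39-fold. No other pair that was compared was held as closely. The ratio of *Ngp* to *Ltf* reads lay between 1.81 and 2.78, and that of *Ngp* to *Camp* between 3.18 and 8.17. Between the S100 and specific-granule genes, *S100a9* to *Ngp* lay between 0.730 and 1.38.

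*Ngp*, *Camp* and *Ltf* encode contents of the specific granules. Ngp is a cystatin-like granule protein, Camp is the precursor of the antimicrobial cathelicidin peptide and Ltf is lactoferrin, which binds iron. *Ngp* was at 89.8, 95.9 and 191 normalized counts in WT-A, WT-B and WT-C, and at 100.2, 89.8 and 63.3 in KO-A, KO-B and KO-C. The WT-C library stood at about the sum of the other two WT values, and the remaining 5 libraries lay between 63.3 and 100.2. The mean was 125 ± 56.5 in WT and 84.4 ± 19.0 in Npffr1-KO (SD, n = 3), with a log2 difference of -0.51 ± 0.28 (SE), a 95% interval from -1.10 to 0.09 and an adjusted p of 0.55 (limma). Without WT-C the log2 difference was -0.16.

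*Ltf* showed the lowest log2 difference of the set. It was at 43.5, 52.9 and 86.3 normalized counts in WT-A, WT-B and WT-C, and at 47.2, 32.3 and 24.0 in KO-A, KO-B and KO-C. KO-B and KO-C lay below every WT library, while KO-A lay between WT-A and WT-B, so the genotypes overlapped. The mean was 60.9 ± 22.5 in WT and 34.5 ± 11.8 in Npffr1-KO (SD, n = 3). The log2 difference was -0.80 ± 0.34 (SE) with a 95% interval from -1.51 to -0.10, and it did not pass the adjustment over all genes (limma, unadjusted p = 0.028, adjusted p = 0.36, exact permutation p = 0.2). Without WT-C it was -0.52, and without both WT-C and KO-A it was -0.77 (limma, adjusted p = 0.73).

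*Camp* did not follow *Ltf*. It was at 16.4, 11.7 and 44.7 normalized counts in WT-A, WT-B and WT-C, and at 19.3, 28.3 and 18.5 in KO-A, KO-B and KO-C. Here WT-C was again highest, but all 3 Npffr1-KO libraries lay above the other two WT libraries. The mean was 24.3 ± 17.8 in WT and 22.0 ± 5.41 in Npffr1-KO (SD, n = 3), with the higher mean in WT, while the log2 difference averaged over libraries was 0.07 ± 0.47 (SE; limma, adjusted p = 0.98). Without WT-C it was 0.62. Summed over *Ngp*, *Camp* and *Ltf*, the libraries held 150, 161 and 322 normalized counts in WT and 167, 150 and 106 in Npffr1-KO. The Npffr1-KO mean was 0.669 times the WT mean and 0.909 times when WT-C was left out, so much of the difference in this sum came with 1 library.

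**Figure D2:**
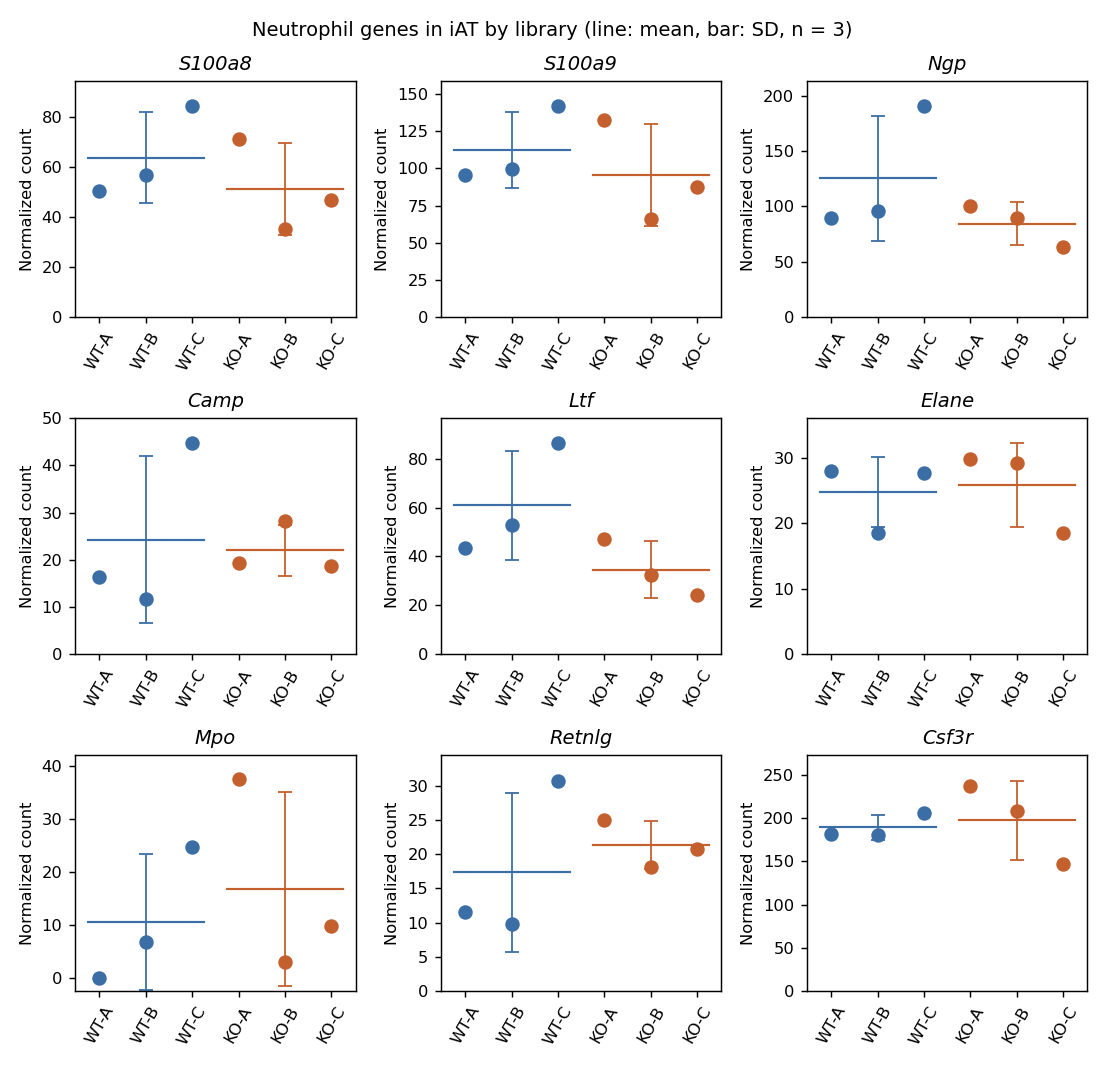
Normalized counts (y axes, each starting at 0 except for *Mpo*, whose SD bars reach below it) of the 9 genes in the 3 WT libraries (blue) and the 3 Npffr1-KO libraries (orange). Points are single libraries, horizontal lines are genotype means and vertical bars are the SD, and WT-C is the highest WT library for 8 of the 9 genes and KO-A the highest Npffr1-KO library for 8 of the 9.

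*Elane* and *Mpo* belong to the azurophil granules and to the promyelocyte stage. *Elane* encodes neutrophil elastase. It was at 28.0, 18.6 and 27.8 normalized counts in WT-A, WT-B and WT-C and at 29.9, 29.3 and 18.5 in KO-A, KO-B and KO-C. Its variance within genotypes was 1.37 times that of counting alone, against 5.80 times for *S100a8* and 8.86 times for *S100a9*. The log2 difference was 0.05 ± 0.37 (SE) with a 95% interval from -0.73 to 0.84 (limma, adjusted p = 0.98). *Elane* had no rise in WT-C, where *Ngp*, *Camp* and *Ltf* were highest, and the ratio of *Ngp* to *Elane* reads was 6.86 there and between 3.07 and 5.16 in the other libraries.

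*Mpo*, the gene of myeloperoxidase, was the least steady member. It was at 0, 6.85 and 24.8 normalized counts in WT-A, WT-B and WT-C and at 37.6, 3.03 and 9.82 in KO-A, KO-B and KO-C, from 0 to 39 reads. The 0 in WT-A stood beside 29 reads of *Elane* in the same library, and KO-B had 3 reads of *Mpo* beside 29 of *Elane*. The ratio of *Mpo* to *Elane* reads thus ran from 0 to 1.26. The variance of *Mpo* was 18.2 times that of counting. The mean of *Mpo* was 10.6 ± 12.8 in WT and 16.8 ± 18.3 in Npffr1-KO (SD, n = 3), and its deposited log2 ratio was 0.28. Its log2 difference in the fit was 1.30 ± 1.11 (SE) with a 95% interval from -1.03 to 3.62 (limma, adjusted p = 0.75). Without WT-A it was -0.29. With all libraries it was 1.02 with a pseudocount of 1 and 2.03 with a pseudocount of 0.1, so its size rested on the pseudocount.

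*Retnlg* encodes a resistin-like protein of neutrophils, and *Csf3r* the receptor for granulocyte colony-stimulating factor. *Retnlg* was at 11.6, 9.79 and 30.8 normalized counts in WT-A, WT-B and WT-C and at 25.1, 18.2 and 20.7 in KO-A, KO-B and KO-C. As with *Camp*, the Npffr1-KO libraries lay above WT-A and WT-B and below WT-C. The log2 difference was 0.46 ± 0.47 (SE; limma, adjusted p = 0.80), and 0.96 without WT-C. *Csf3r* was at 182, 180 and 205 in WT-A, WT-B and WT-C and at 237, 208 and 147 in KO-A, KO-B and KO-C. The Npffr1-KO libraries spanned the WT libraries on both sides. The log2 difference of *Csf3r* was 0.04 ± 0.20 (SE), and its 95% interval from -0.38 to 0.46 was the narrowest of the 9 (limma, adjusted p = 0.98). The choice of its reads held this estimate near the deposited ratio, and the interval leaves out the uncertainty of that choice.

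**Figure D3:**
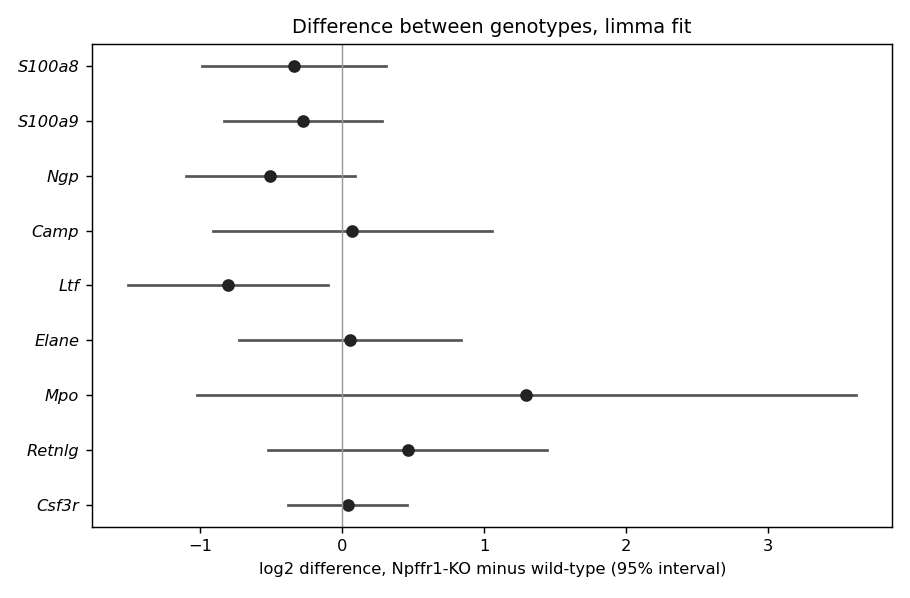
Log2 difference of Npffr1-KO minus WT (x axis) for each gene in the limma fit. Points are estimates and lines are 95% intervals from 3 libraries per genotype, and the line of *Ltf* alone does not cross 0, ending at -0.10.

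Taking the 9 genes as a group, 0 passed the adjusted p of 0.05 in limma, where 0.237% of the 6738 genes tested did (7 higher and 9 lower in Npffr1-KO). With limma voom 0 passed as well. One member, *Ltf*, had an unadjusted p under 0.05, against 11.0% of all genes tested. The genotypes did not overlap in 0 of the 9 members, against 15.5% of all genes. Differences were below 0 in 4 members and above 0 in 5, and their median was 0.04 on the log2 scale, where the median of all genes tested was -0.06. Without any 1 of the 6 libraries, between 0 and 2 genes of all those tested passed, and without both WT-C and KO-A 0 passed. Without this pair of libraries the log2 difference was 0.70 for *Camp*, 0.84 for *Retnlg*, 1.65 for *Mpo*, 0.03 for *Elane*, -0.05 for *Csf3r*, -0.30 for *Ngp*, -0.77 for *Ltf*, -0.39 for *S100a8* and -0.37 for *S100a9*. The intervals of *Ngp*, *Camp*, *Ltf*, *Mpo* and *Retnlg* reach past a log2 difference of 1 in size, so a difference of that size lies within the uncertainty of these genes with 3 libraries per genotype.

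The genotype values that the authors deposited draw low genes together but use no choice among combinations. In these values *Ltf* had a log2 ratio of -0.69 and *Ngp* of -0.50, and the other 7 lay between -0.27 and 0.28. At a log2 ratio of -0.5 or below, 2 of the 9 members were lower in Npffr1-KO, against 4.78% of the 15309 genes whose mean was 10 or more. At 0.5 or above, 0 members were higher, against 4.37%. The median ratio of the members was -0.10 and that of all these genes was 0.01. *Camp* had a deposited log2 ratio of -0.10, with the sign of its means and not that of its mean log2 difference.

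The summed level of the members differed less between the genotypes than between libraries of 1 genotype. It was 517, 533 and 837 normalized counts in WT-A, WT-B and WT-C and 701, 510 and 436 in KO-A, KO-B and KO-C. WT-C was the highest of all 6 libraries for 6 members and KO-A for the other 3, *Elane*, *Mpo* and *Csf3r*. KO-C was the lowest library for 4 members. The mean of the sum was 629 ± 180 in WT and 549 ± 136 in Npffr1-KO (SD, n = 3), 0.873 times as high in Npffr1-KO, and 1.05 times when WT-C was left out.

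**Figure D4:**
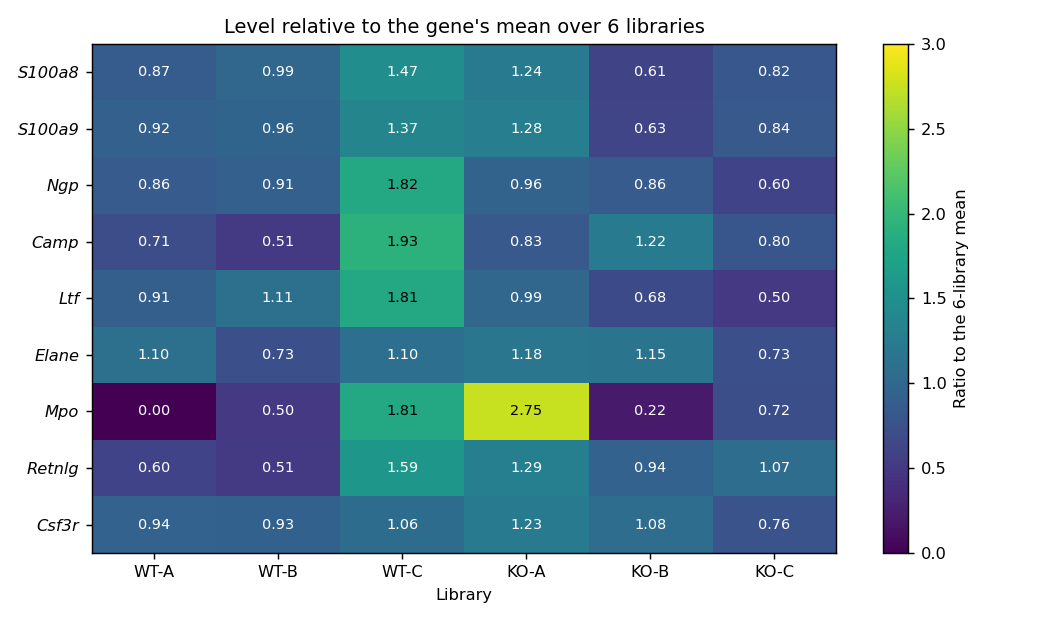
Level of each gene in each library divided by the mean of that gene over the 6 libraries (colour, no unit). WT-C lies above 1 for all 9 genes, most for *Camp*, *Ngp*, *Ltf* and *Mpo*, and KO-A is highest for *Mpo*.

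In WT-C the specific-granule sum of 322 normalized counts was the highest of all libraries, while in KO-A it was 167, near the 161 of WT-B. For *S100a8* and *S100a9* together WT-C held 226 and KO-A 204, against 101 to 157 in the other 4 libraries. For *Elane* and *Mpo* together KO-A was highest with 67.5 and WT-C followed with 52.6, against 25.5 to 32.3 elsewhere. That order came from *Mpo*, since *Elane* was at 27.8 in WT-C and 29.9 in KO-A beside 28.0 in WT-A and 29.3 in KO-B. No test compared these sums.

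**Figure D5:**
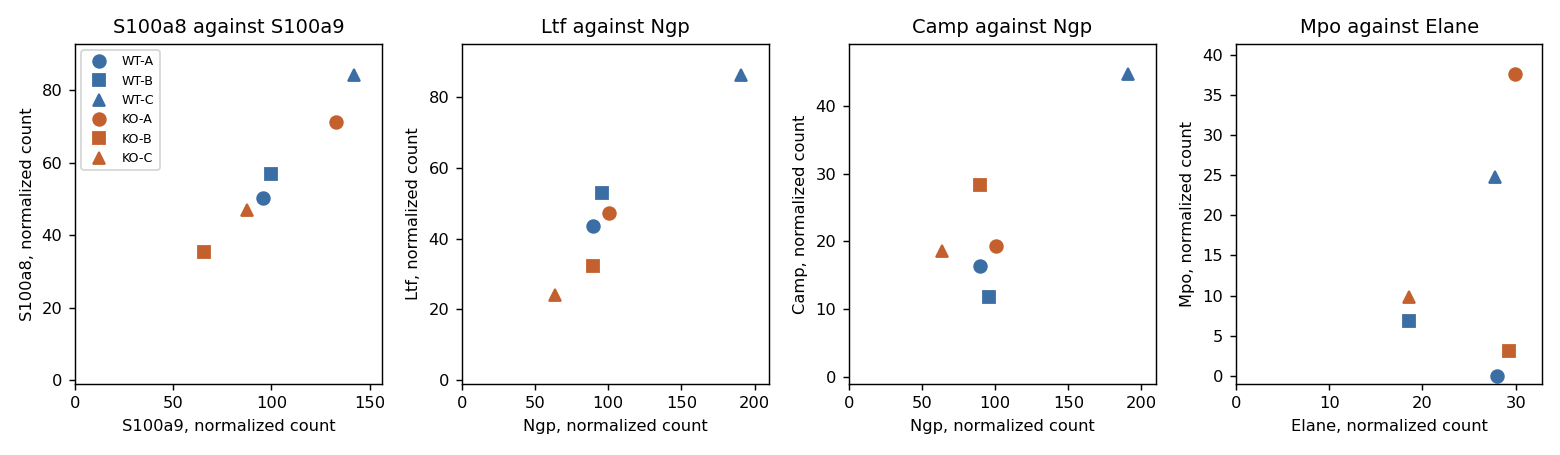
Normalized counts of 4 pairs of genes plotted against each other, 1 point per library (blue, WT; orange, Npffr1-KO; circle, square and triangle for A, B and C). *S100a8* and *S100a9* lie along a line through all 6 libraries, *Ngp* and *Ltf* less closely so, and *Mpo* and *Elane* are scattered, with *Mpo* from 0 to 37.6 while *Elane* stays between 18.5 and 29.9.

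Among genes with recovered reads, those most like the set in their pattern over libraries lay outside the neutrophil lists used here. Over the 6 libraries and 4090 genes with recovered reads and a mean between 10 and 200, the mean of the scaled log2 levels of the 9 members was most closely followed by *Dusp19* (Pearson's r = 0.98), *Pkib* (0.97), *Fam188b* (0.97), *Rps27rt* (0.96) and *S100a3* (0.95). These 6 points share the same libraries, and the values are a description. *Dusp19* ran from 110 to 145 normalized counts, a narrow range beside that of the members. *S100a3* was at 4.83, 6.85 and 20.8 in WT-A, WT-B and WT-C and at 18.3, 9.08 and 5.46 in KO-A, KO-B and KO-C. It therefore was also highest in the pair of libraries that held *Krt5* and *Rps27rt*.

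*Prtn3*, the neighbour of *Elane*, was at 41.5, 35.2 and 31.8 normalized counts in WT-A, WT-B and WT-C and at 55.9, 40.4 and 69.8 in KO-A, KO-B and KO-C. Its lowest library was WT-C, and the ratio of *Elane* to *Prtn3* reads ran from 0.266 in KO-C to 0.875 in WT-C. *Gfi1*, a repressor needed for neutrophil differentiation and also used by lymphocytes, was at 82.1, 54.8 and 83.4 in WT-A, WT-B and WT-C and at 112, 107 and 109 in KO-A, KO-B and KO-C. The genotypes did not overlap for *Gfi1*, as for 15.5% of all genes tested, and its log2 difference of 0.60 ± 0.24 (SE) did not pass the adjustment (limma, adjusted p = 0.33). *Ctsg*, the gene of cathepsin G, had 41 reads in all. It was at 3.86, 4.89 and 3.97 in WT-A, WT-B and WT-C and at 13.5, 0 and 15.3 in KO-A, KO-B and KO-C. Of the 6 genes in this list 4 were tested and 0 passed. The 2 with a mean of at least 10, *Prtn3* and *Gfi1*, both had a deposited log2 ratio of 0.5 or above, against 4.37% of all genes with such a mean. *Cebpe*, *Ms4a3* and *Fcnb*, named here because of their values, had 16, 3 and 4 reads and were each highest in WT-C, at 4.96, 1.98 and 1.98 normalized counts. *Prtn3*, *Gfi1* and *Ctsg* of the same list were not highest in WT-C.

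Among 10 other genes of the specific and gelatinase granules, 5 had reads per library and 0 of these passed, with differences below 0 in 4 of the 5. The highest genes of this list, *Hp*, *Lyz2* and *Cybb*, are also made by adipocytes or macrophages, and the authors' values were 12313 and 11231 for *Hp*, 9262 and 11951 for *Lyz2* and 902 and 1062 for *Cybb* in WT and Npffr1-KO. *Lcn2*, the gene of neutrophil gelatinase-associated lipocalin, was named after its values were seen. It was at 62.8, 73.4 and 91.3 in WT-A, WT-B and WT-C and at 56.9, 57.5 and 84.0 in KO-A, KO-B and KO-C, with a log2 difference of -0.20 ± 0.26 (SE; limma, adjusted p = 0.86).

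Of 15 genes of the mature neutrophil surface and cytosol, 12 were tested and 0 passed, with differences above 0 in 10 and below 0 in 2. Among the highest were *Wfdc21* at 746 in WT and 895 in Npffr1-KO and *Cxcr2*, a chemokine receptor, at 518 and 540, both as the authors' values. *Clec4e* and *Fpr1* had unadjusted p-values under 0.05 and are named for that reason. *Clec4e*, a C-type lectin of myeloid cells, was at 6.76, 18.6 and 15.9 in WT-A, WT-B and WT-C and at 28.9, 33.3 and 29.5 in KO-A, KO-B and KO-C, with every Npffr1-KO library above every WT library (log2 difference 1.24 ± 0.44 SE, limma, adjusted p = 0.26). *Fpr1*, a receptor for formyl peptides, was at 21.2, 21.5 and 15.9 in WT-A, WT-B and WT-C and at 15.4, 6.06 and 4.36 in KO-A, KO-B and KO-C, with every Npffr1-KO library below every WT library (log2 difference -1.32 ± 0.54 SE, limma, adjusted p = 0.35). The genotypes did not overlap in 15.5% of all genes tested. *Ly6g*, the defining surface marker of mouse neutrophils, had 10 reads in all, with at most 3.97 normalized counts in any library, so the set is described here by its genes and not as a measure of neutrophil number.

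Of 8 ligands that call or sustain neutrophils, 6 were tested and 0 passed. *Cxcl1*, a chemokine for Cxcr2, had the authors' values of 87.1 in WT and 209 in Npffr1-KO, and its reads per library were not recovered, so this difference was not tested. *Csf3*, the ligand of Csf3r, had 8 reads in all. *Cxcl12* was at 8329 and 7371 and *Ppbp* at 27.2 and 22.6, as the authors' values.

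Markers of other cell types were read beside the members. Globin RNA, carried by red blood cells, was abundant in both genotypes, and the authors' values for *Hba-a1* were 67035 in WT and 74402 in Npffr1-KO. Of 12 erythroid genes 6 had reads per library, and their sum was 133 to 170 normalized counts in WT, 160 in KO-A, 398 in KO-B and 203 in KO-C. KO-B, the library highest in these erythroid genes, held 510 normalized counts of the members and was the lowest library for *S100a8* and *S100a9*. Of 7 platelet genes 5 were tested and 0 passed, with sums of 123 to 158 in WT and 105 to 142 in Npffr1-KO.

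The 7 keratinocyte genes summed to 114, 228 and 214 normalized counts in WT-A, WT-B and WT-C and 158, 199 and 160 in KO-A, KO-B and KO-C, which did not follow the members, although *Krt5* did as given above. Their highest genes were *Krtdap*, from 40.6 to 129, and *Krt10*, from 60.6 to 96.9. The 6 eosinophil genes summed to 77.3 to 94.3 in WT and 102 to 142 in Npffr1-KO. Most of this sum was *Ear2*, with means of 58.7 in WT and 85.5 in Npffr1-KO. Of the 5 tested 0 passed, with differences above 0 in 3 and below 0 in 2, so the sum does not describe the list as a whole. Of 7 mammary epithelial genes 6 were listed, and their sum was 50.2 to 65.6 in WT and 54.6 to 71.7 in Npffr1-KO. The part of any of these cell types in the levels of the members was not tested.

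The 10 macrophage and monocyte genes lay above the range in which reads were recovered. The authors' values for *Csf1r* were 4594 in WT and 4379 in Npffr1-KO, and those for *C1qa* were 2871 and 3389. Of 7 mast cell and basophil genes, 6 had a mean of at least 10. Of these 3 had a deposited log2 ratio of -0.5 or below, against 4.78% of the 15309 genes with such a mean, and their median was -0.50. These ratios were not tested. Adipocyte RNA was abundant in both genotypes, with *Fabp4*, the fatty acid binding protein of adipocytes, at 156285 and 173188, and *Adipoq* at 37027 and 35360. These values do not identify the fat depot, and 1 value per genotype does not check single libraries.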

How the data were processed

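Total RNA of iAT from 3 WT and 3 Npffr1-KO samples was sequenced. The authors deposited a signal per gene, read counts normalized for library size, as 1 value per genotype, and a gene length. The submitters' processing notes name Bowtie2, RSEM and DESeq2; versions, the genome build and the annotation were not stated there. The deposited fold changes and p-values, and a second table of 90 genes from them, were not used. The mean of the deposited values is that of the 6 libraries, and genes with 1 read gave the size factors and, from the direction of the values, the genotype of each library. All combinations of whole reads (up to 450 per library) were searched for each gene with a mean of up to 200, within the rounding of the values. Where several matched, and always from a mean of 100, the 1 taken had a log2 ratio within 0.02 plus 0.3 times the deposited log2 ratio of 1.15 times that ratio, with libraries within 5-fold. Of 8950 genes, 7455 had a single match and 1166 were chosen by ratio. The direction was that of the deposited values for 5249 of 5249 genes checked, all of them with a single match. Genes chosen by ratio were not checked, because the choice itself used the deposited ratio.

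Reads divided by size factors, plus a pseudocount of 0.5, were tested on the log2 scale with limma 3.58.1 (R 4.3.3; trend, two-sided, genes with a mean of at least 1), with Benjamini-Hochberg adjustment over 6738 genes and a threshold of 0.05. On this scale the log2 difference of low genes depends on the pseudocount, and it can lie above or below the log2 ratio of the means. Exact permutation tests used scipy 1.17.1. Both steps were tested on simulated data. There the log2 ratio of the reads was divided by the same 1.15 that the choice by ratio used, so that choice was not tested independently. Total library depth is unknown. Named were the 9 members, *Npffr1*, up to 3 genes with the highest mean per marker list, any that passed and the 5 most alike genes. The members and lists were chosen with earlier results of these data known. Promoters were taken from RefSeq, GRCm38.p6. A gene that the naming rule chose from the marker lists is not reported here.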

Additional observations from a re-analysis of the deposited data

How the results depend on the processing

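No member passed an adjusted p of 0.05 in any of the alternatives that gave it a value, which left 3 members with an upper limit of 25, 6 with a single match and 9 in the others, and the lowest adjusted p of a member was 0.34 over 15 alternatives (limma). The number of genes passing among all those tested was less stable than this. It was 16 as reported, 24 with a pseudocount of 1, 19 with scaling by total recovered reads, 15 with limma voom, 13 with no minimum, 1 with a pseudocount of 0.1, 6 with a minimum mean of 5, 3 with an upper limit of 25 on the mean, 1 with genes of a single matching combination only, 0 without both WT-C and KO-A, and 0 to 2 when 1 library was left out. The causes of these shifts were not tested. The upper limit, the minimum mean of 5 and the single match test fewer genes, and no minimum tests more. The alternatives of a single match and of leaving out both WT-C and KO-A were chosen after the data were seen. Of 126 values of single members under these alternatives 10 changed sign, all of them in *Camp*, *Elane*, *Mpo* and *Csf3r*. The changed values on the log2 scale were as follows. *Camp* was -0.09 without WT-A, -0.32 without WT-B and -0.12 without KO-B. *Elane* was -0.14 without WT-B, -0.06 without KO-A and -0.05 without KO-B. *Mpo* was -0.29 without WT-A. *Csf3r* was -0.11 without KO-A, -0.01 without KO-B and -0.047 without WT-C and KO-A. With 1 library left out, log2 differences ran from -1.05 to -0.52 for *Ltf*, from -0.70 to -0.16 for *Ngp*, from -0.61 to -0.10 for *S100a8*, from -0.55 to -0.04 for *S100a9*, from 0.15 to 0.96 for *Retnlg*, from -0.32 to 0.62 for *Camp*, from -0.14 to 0.27 for *Elane*, from -0.29 to 2.54 for *Mpo* and from -0.11 to 0.23 for *Csf3r*. For the deposited ratios, a minimum mean of 50 gave 459 lower genes in place of 732 and 1 lower member in place of 2. That minimum left out *Ltf*, whose mean was 47.7. A pseudocount of 1 or of 10 also gave 1 lower member, and the ratio of *Ngp*, -0.504, lay close to the limit of -0.5. Centring on genes of like length gave 3 lower members, with 792 lower and 514 higher genes. No paired analysis was possible because the recovered libraries carry no sample number. Reads per library were not recovered above a mean of 200. The member with the fewest reads was *Mpo*, with 83.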

Other observations

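The library KO-A, which was highest for *Elane*, *Mpo* and *Csf3r*, also held 5 genes of striated muscle that were nearly absent elsewhere, a pattern noticed after the data were seen. *Trdn*, the gene of triadin, was at 114 normalized counts in KO-A and at no more than 0.992 in any other library. *Myot*, the gene of myotilin, was at 54.9 in KO-A and at 0.979 or less elsewhere, and *Myoz2*, *Xirp2* and *Smtnl1* were at 31.8, 23.1 and 10.6 in KO-A. These muscle genes were not high in WT-C, the other library with high levels of neutrophil genes, where *Trdn* was at 0.992 and *Myot* at 0. The same limits, at least 10 in 1 library and at most 2 in the rest, were met by 5 genes in KO-C, 4 in KO-B, 3 in WT-A, 3 in WT-B and 2 in WT-C. The basal keratin *Krt14* was at 5.95 in WT-C and 10.6 in KO-A and between 0 and 1.09 in the other libraries.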
